A study of Mus musculus with 3 samples.

Results

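Transcripts of 8 genes for the recognition of apoptotic cells were measured in aortic macrophages and dendritic cells: the bridging proteins Gas6, Pros1 and Mfge8, the receptor tyrosine kinases Axl and Mertk, the integrin subunit Itgb5, and the receptors Timd4 and Stab1. They were taken by name from the 32285 genes counted, with earlier results of these data known, and all 8 were present. The surface protein encoded by Timd4, TIM4, was also read by 1 of the 75 antibodies applied to the cells. Uptake itself was not measured. UMI counts, which are counts of captured transcript molecules, were summed over the cells of each mouse, and the mouse was the replicate in every test. Shares of cells with a transcript or with the TIM4 protein in a class were pooled over mice and are given as descriptions.

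Cells came from the aortas of 10 mice on a C57BL/6 background and were sorted as CD45+ leukocytes outside the circulation. There were 5 Jak2WT littermates (mice 1 to 5) and 5 Jak2V617F Myel mice, in which a Jak2V617F Flex allele is recombined by Cre under the Lysozyme M promoter. This promoter is active mainly in myeloid cells, so recombination is not limited to macrophages and need not occur in each of them. At collection 3 of the mutant mice had aortic dilation (mice 6, 8 and 10) and 2 had an aneurysm (mice 7 and 9), and no mouse was treated. The age of these mice is not given in the sources used here. Each aorta was stained on its own with a hashtag antibody naming the mouse, the cells were pooled, and 1 pool was captured for transcripts, antibodies and hashtags.

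Dying cells expose phosphatidylserine on their surface, and phagocytes find it either directly or through a soluble bridge. GAS6 and protein S (Pros1) bind phosphatidylserine at one end and TAM receptors at the other, GAS6 to AXL, MERTK and TYRO3 and protein S to MERTK and TYRO3. MFGE8 links it to integrins that contain the beta-5 (Itgb5) or beta-3 chain. TIM4 (Timd4), which tethers the dying cell, and stabilin-1 (Stab1), a scavenger receptor, bind phosphatidylserine themselves. TIM4 is known as a surface protein of long-lived resident macrophages, and MERTK as the main TAM receptor of macrophages at rest, whereas AXL is better known from inflamed tissue and from dendritic cells.

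All 8 genes were located in GRCm38, the assembly of the counts. Gas6 (ENSMUSG00000031451) lies on chromosome 8 from 13465374 to 13494490 on the minus strand, and Pros1 (ENSMUSG00000022912) on chromosome 16 from 62854307 to 62929346 on the plus strand. Axl (ENSMUSG00000002602) lies on chromosome 7 from 25757273 to 25788705 on the minus strand, Mertk (ENSMUSG00000014361) on chromosome 2 from 128698956 to 128802894 on the plus strand, and Timd4 (ENSMUSG00000055546) on chromosome 11 from 46810800 to 46844332 on the plus strand. Stab1 (ENSMUSG00000042286) lies on chromosome 14 from 31139013 to 31168641 on the minus strand, Mfge8 (ENSMUSG00000030605) on chromosome 7 from 79133768 to 79149060 on the minus strand, and Itgb5 (ENSMUSG00000022817) on chromosome 16 from 33829665 to 33949338 on the plus strand.

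Upstream windows of 3 members were set side by side, because Timd4 and Axl had opposite levels in the macrophage subsets and Pros1 was the only member with a STAT-type motif, the kind read by factors downstream of JAK2. Each is the 250 bases before the annotated RefSeq start (GRCm38.p6), written 5′ to 3′ on the gene's own strand. Capitals mark a match to the composite PU.1-IRF element of myeloid genes (GGAA, then any 2 bases, then GAAA), or to TTCNNNGAA, the STAT element. Timd4 is chr11:46810549-46810798 on the plus strand, Pros1 is chr16:62854057-62854306 on the plus strand, and Axl is chr7:25788734-25788983 on the minus strand.
Timd4: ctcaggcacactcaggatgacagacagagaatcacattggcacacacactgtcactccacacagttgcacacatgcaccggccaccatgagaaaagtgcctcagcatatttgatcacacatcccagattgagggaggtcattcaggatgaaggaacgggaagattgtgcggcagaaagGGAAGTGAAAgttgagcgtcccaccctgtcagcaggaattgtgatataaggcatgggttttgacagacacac
Pros1: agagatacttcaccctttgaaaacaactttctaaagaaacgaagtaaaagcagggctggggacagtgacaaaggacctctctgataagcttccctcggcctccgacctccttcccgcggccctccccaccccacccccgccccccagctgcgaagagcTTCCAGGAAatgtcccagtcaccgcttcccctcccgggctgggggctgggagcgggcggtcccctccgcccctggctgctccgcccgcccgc
Axl: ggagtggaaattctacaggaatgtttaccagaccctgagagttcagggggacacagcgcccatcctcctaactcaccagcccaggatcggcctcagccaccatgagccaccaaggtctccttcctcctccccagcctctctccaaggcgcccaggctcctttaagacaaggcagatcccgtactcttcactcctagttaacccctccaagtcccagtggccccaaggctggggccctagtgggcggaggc
The search covered both strands from 250 bases before to 50 after the start. The PU.1-IRF match of Timd4 began 72 bases before the start, and 2.72% of the 32851 RefSeq promoters of the same length held this element. The STAT match of Pros1 began 92 bases before the start, and 8.3% of promoters held one. TGCTGA, the core bound by MAF factors, was found in the windows of Timd4 and Stab1 and in 19.5% of promoters, and none of the matches in Timd4 overlapped. No member held TGANTCA (AP-1, in 7.81% of promoters) or GAGGAAGT (PU.1, in 3.2%). A match describes these letters only, and binding was not measured.

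Of 8471 barcodes, 5857 carried 1 hashtag, 2265 carried more than 1 and were left out as multiplets, and 349 carried none. After removal of 986 cells with over 10% mitochondrial transcripts, 4871 cells remained, 112 to 811 per mouse, with 1038443 to 9643994 UMIs per mouse. Cell classes are clusters named from marker genes, so each name stands for cells like that type, and the 8 members and the other uptake genes entered neither the clustering nor the naming. The Lyve1+ macrophages, 1143 cells with 38 to 215 per mouse, comprised Res-MGL1hi (349 cells), Res-Txnip/Trf (243) and IEG+ cells rich in immediate-early transcripts (551). IEG+ cells, counted here among the Lyve1+ macrophages, are listed by the study apart from its LYVE-1+ tissue-resident subsets. The IEG+ class joins clusters of 333 and 218 cells, which scored 0.907 and 1.36 on its markers. Leading genes of the former include Hbb-bs, Ccl2, Cxcl10 and Nr4a1, and those of the latter Jun, Egr1 and Atf3. The study reports Ccl2 and Cxcl10 as higher in Res-MGL1hi, so the IEG+ class may not match its subset of that name. Res-S100hi cells, which the study names separately, did not form a cluster of their own. The Res-MGL1hi cluster scored 2.09 on the markers of Res-MGL1hi and 1.66 on those of Res-S100hi, with Aqp1 among its leading genes, so its values mix both subsets. Lyve1 stood at 922 to 2322 CPM (UMIs scaled to equal totals per sample) in the Lyve1+ macrophages of the 10 mice and at 0 to 81.5 CPM in the Ccr2+ inflammatory macrophages. Of these inflammatory macrophages (471 cells), 416 came from the 2 mice with aneurysm. The class joins a cluster led by Mmp12 and Spp1 (317 cells) and a cluster of 154 cells whose leading genes include Ccr2 and Il1a but also the antigen-presentation genes H2-Eb1, H2-Aa, H2-Ab1 and Cd74. The cDC2 markers summed to 15546 CPM in the latter, 9154 CPM in the former and 26096 CPM in cDC2, and the macrophage markers to 12559, 10655 and 2607 CPM. Inflammatory macrophages made up 65.2% and 50.0% of the macrophages in mice 7 and 9 and 0 to 10.0% in the other 8. Jak2 itself was at 17.6 to 37.8 CPM in Lyve1+ macrophages, and these 3′ counts do not show which allele was transcribed.

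The members were divided between Lyve1+ and Ccr2+ inflammatory macrophages. Gas6, Pros1, Timd4 and Stab1 were higher in Lyve1+ than in Ccr2+ inflammatory macrophages in all 5 mice that had at least 10 cells of both, and Axl and Itgb5 were higher in the inflammatory cells in all 5. For these 6 members the values of the classes did not overlap, and the same held for 15.2% of the 7863 genes with a mean of at least 10 CPM in either class. Mertk and Mfge8 overlapped. The classes are clusters of the same cells, so these levels are a description and carry no test. From these same cells the study lists surface TIMD4 as a marker of resident macrophages, and names Gas6 among markers shared by its resident subsets. The higher level of Timd4 and Gas6 in Lyve1+ macrophages was thus known beforehand. UMI counts are taken at the 3′ end, and levels are compared within a gene, between classes, and not between genes.

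Among the bridges, Gas6, the ligand of all 3 TAM receptors, was at 669 ± 62.8 CPM (SD, n = 8 mice) in Res-MGL1hi, 578 ± 103 (n = 10) in Res-Txnip/Trf and 439 ± 57.2 (n = 10) in IEG+ cells. It was 117 ± 41.7 CPM (n = 5) in inflammatory macrophages. Res-MGL1hi exceeded IEG+ in 8 of 8 mice without overlap, where 4.5% of 7777 genes did not overlap, whereas Res-MGL1hi and Res-Txnip/Trf overlapped. When each cell was thinned to 2000 UMIs, 69.5% of Res-MGL1hi cells (Clopper-Pearson 95% interval 64.4 to 74.3) and 17.3% of inflammatory cells (14.0 to 21.1) held a Gas6 transcript. The T cells of the same pool, which should lack Gas6, gave 1.49% (0.644 to 2.91). Before thinning these shares were 96.6%, 42.9% and 4.26%, at median depths of 11831, 12799 and 6294 UMIs per cell. Intervals cover counting error only.

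Pros1, the protein S gene, was graded more steeply within the Lyve1+ cells. It was at 149 ± 27.5 CPM (SD, n = 8) in Res-MGL1hi, 128 ± 36.7 (n = 10) in Res-Txnip/Trf and 47.9 ± 15.5 (n = 10) in IEG+ cells, and at 30.5 ± 8.37 (n = 5) in inflammatory macrophages. Both of the first 2 subsets exceeded IEG+ cells in every mouse compared, 8 of 8 and 10 of 10, without overlap, where 3.62% of 7918 genes did not overlap between Res-Txnip/Trf and IEG+ cells. Mfge8, the integrin bridge, was low in every macrophage subset, with means of 21.8 to 37.1 CPM, and the subsets overlapped. Its thinned share was 7.82% (4.77 to 11.9) in Res-Txnip/Trf and 0.558% (0.115 to 1.62) in T cells. Mast cells, not macrophages, had the highest Mfge8 at 401 ± 57.8 CPM (SD, n = 4).

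Axl was at 10.2 ± 6.99 CPM (SD, n = 8) in Res-MGL1hi, 33.6 ± 18.8 (n = 10) in Res-Txnip/Trf and 32.1 ± 8.83 (n = 10) in IEG+ cells. In inflammatory macrophages it was 223 CPM in mouse 2, 85.5 in mouse 6, 136 in mouse 10, 152 in mouse 7 and 131 in mouse 9. Mice with and without aneurysm thus had inflammatory cells high in Axl. The values without aneurysm rest on 11 cells in mouse 2, 11 in mouse 6 and 18 in mouse 10, against 229 in mouse 7 and 187 in mouse 9. The thinned share of cells with Axl was 24.6% (20.8 to 28.8) in inflammatory macrophages, 1.44% (0.468 to 3.32) in Res-MGL1hi and 0.372% (0.0451 to 1.34) in T cells. Mertk had means of 148 ± 31.8 (n = 8), 131 ± 39.7 (n = 10), 156 ± 37.4 (n = 10) and 149 ± 57.3 CPM (n = 5) in Res-MGL1hi, Res-Txnip/Trf, IEG+ and inflammatory macrophages, and all of these ranges overlapped. In inflammatory macrophages Mertk was 134 CPM in mouse 2 and averaged 196 CPM with dilation and 111 CPM with aneurysm (n = 2 each). The Lyve1+ macrophages averaged 133 CPM in Jak2WT mice, 146 with dilation and 173 with aneurysm.

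Within the inflammatory class the 2 clusters had like levels of some members and not of others. Axl was 147 CPM in the cluster led by Mmp12 and Spp1 and 137 CPM in the one with antigen-presentation genes, and Timd4 was 2.01 and 4.78 CPM. Gas6 was 73.5 and 190 CPM and Mertk 92.0 and 170 CPM. These are sums over mice with no test, and mouse 7 gave 103 of the 154 cells of the latter. By mouse, Gas6 was 91.7 and 222 CPM in mouse 7 but 62.0 and 75.8 CPM in mouse 9. The last value rests on 18 UMIs in 25 cells. Mertk was 91.7 and 174 CPM in mouse 7 and 92.4 and 147 CPM in mouse 9. Tyro3, the remaining TAM receptor, had 0 UMIs in the 11719659 UMIs of the Lyve1+ macrophages.

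Itgb5, the integrin chain that receives MFGE8, was lowest in Res-MGL1hi at 39.1 ± 10.9 CPM (SD, n = 8). It was 84.6 ± 9.48 (n = 10) in Res-Txnip/Trf, 75.2 ± 15.4 (n = 10) in IEG+ cells and 179 ± 45.0 (n = 5) in inflammatory macrophages. In the last class it was 134 CPM in mouse 2, 161 in mouse 6, 149 in mouse 10, 205 in mouse 7 and 244 in mouse 9. Res-MGL1hi lay below each of the other Lyve1+ subsets in 8 of 8 mice without overlap. Over all 10 mice Itgb5 in IEG+ cells went down to 40.5 CPM, inside the 21.9 to 54.2 CPM of Res-MGL1hi. Against IEG+ cells 4.5% of 7777 genes did not overlap in either direction, and against Res-Txnip/Trf 2.38% of 7982.

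The direct phosphatidylserine receptors separated the subsets in different orders. Timd4 was at 202 ± 39.4 CPM (SD, n = 8) in Res-MGL1hi, 165 ± 51.3 (n = 10) in Res-Txnip/Trf and 82.3 ± 24.1 (n = 10) in IEG+ cells. Its level in inflammatory macrophages was 0 CPM in mice 6 and 10 and 2.43 to 8.93 CPM in mice 2, 7 and 9, and 2.34% of the cells held a transcript, against 3.11% of T cells at a lower median depth, so Timd4 there is read as background. After thinning 0 of 467 cells held one. Stab1 was highest in Res-Txnip/Trf, at 867 ± 151 CPM (n = 10), then Res-MGL1hi at 548 ± 45.0 (n = 8), IEG+ at 406 ± 103 (n = 10) and inflammatory macrophages at 221 ± 36.6 (n = 5). Res-Txnip/Trf exceeded Res-MGL1hi in 8 of 8 mice without overlap, where 2.38% of 7982 genes did not overlap between these 2 subsets. The study lists Stab1 among the transcripts that mark this subset in the same cells, so its rank there was known beforehand. Over all 10 mice Stab1 in Res-Txnip/Trf went down to 514 CPM, inside the 487 to 622 CPM of Res-MGL1hi.

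**Figure D1:**
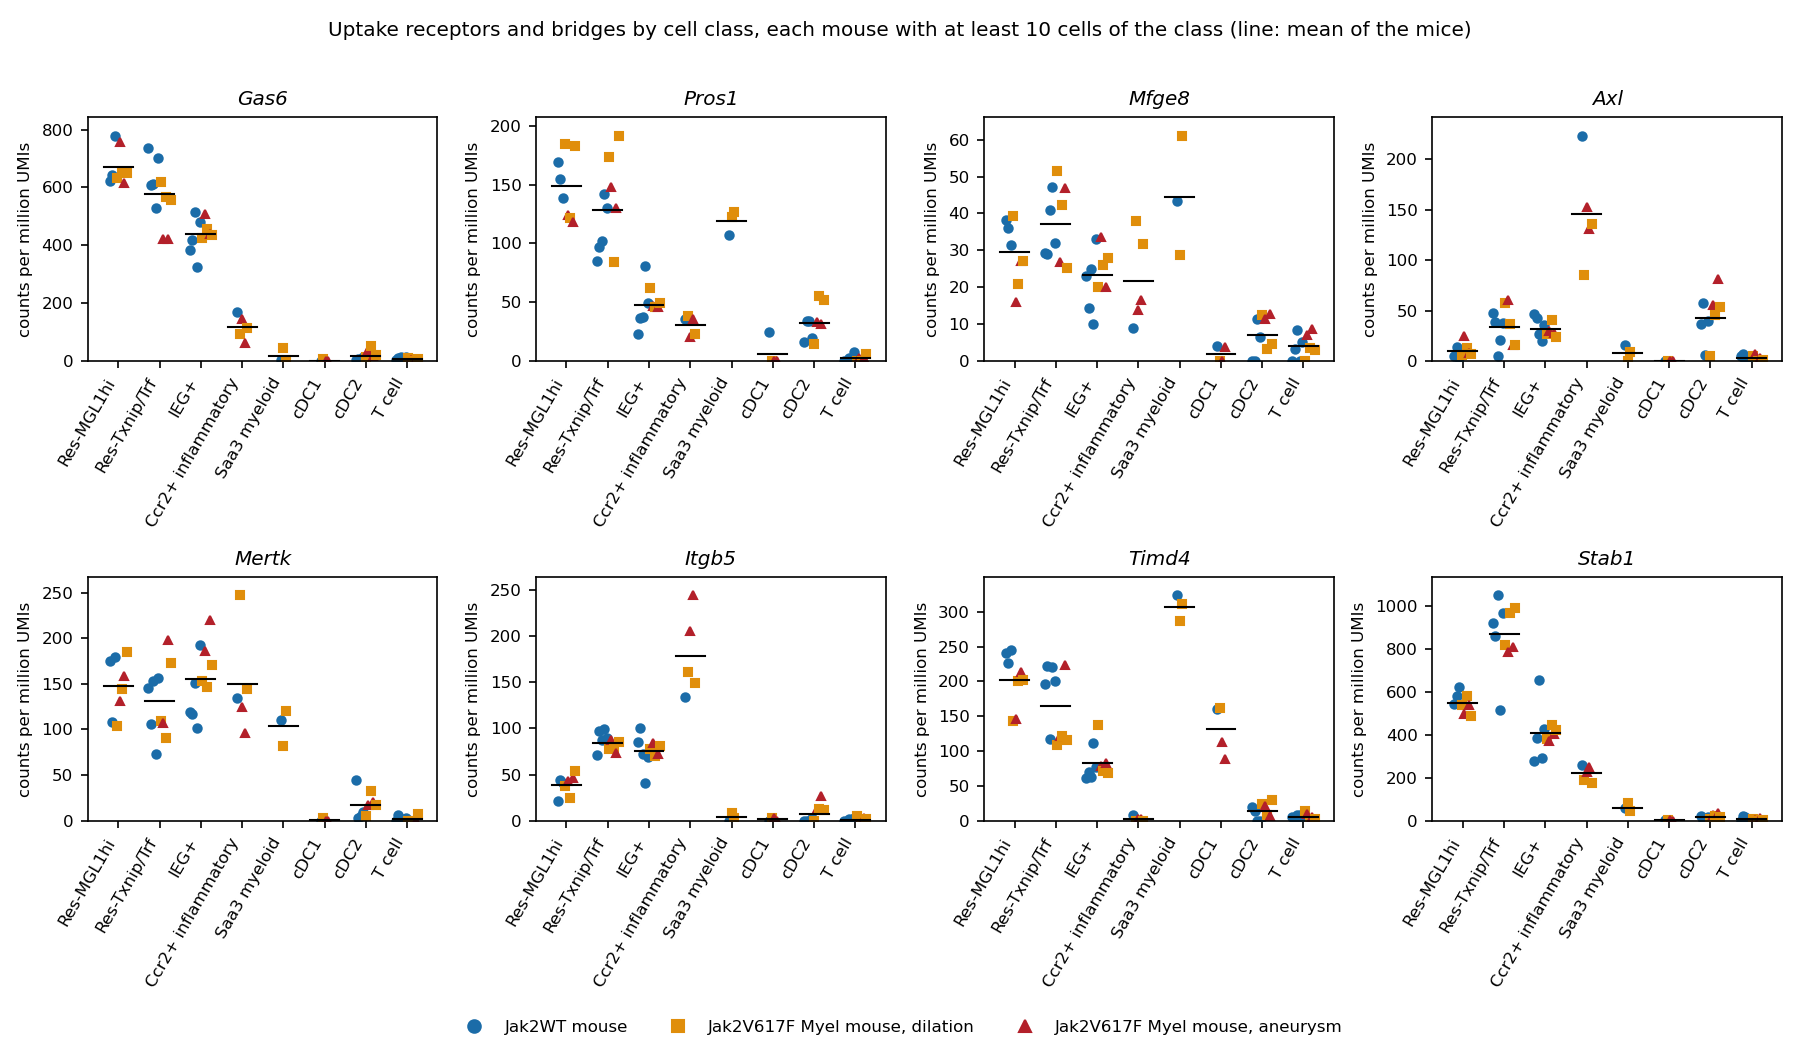
Level of each member in CPM (linear axis from 0) in 8 cell classes. Each point is a mouse with at least 10 cells of the class, coloured by group, and the line is the mean of the mice. Gas6, Pros1, Timd4 and Stab1 sit high in the Lyve1+ subsets, Axl and Itgb5 in Ccr2+ inflammatory macrophages, and Timd4 also in Saa3 myeloid cells and cDC1.

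Timd4 was also high in a further myeloid class. Saa3 myeloid cells, named from Saa3, Prg4, Alox15, Fn1 and Slpi (207 cells, of which 76 came from mouse 5 and 99 from mouse 10) had Timd4 at 307 ± 18.8 CPM (SD, n = 3), Pros1 at 119 ± 10.5 and Mertk at 104 ± 19.9. Gas6 was only 17.8 ± 23.6 CPM and Stab1 61.1 ± 19.5. Timd4 was above the Lyve1+ macrophages in 3 of 3 mice without overlap, although with so few mice 51.8% of 7920 genes did not overlap.

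By thinned shares pooled over mice, Axl, Pros1, Mertk and Itgb5 in cDC2 and Timd4 in cDC1 lay above T cells. Of the 398 cDC2, 213 came from the mice with aneurysm. In cDC2 (398 cells), the class that presents antigen to CD4 T cells, 7 of the 8 members were lower than in Lyve1+ macrophages in 9 of 9 mice without overlap, against 19.3% of 7948 genes. Gas6 was 18.8 ± 17.3 CPM (SD, n = 9), Mertk 17.5 ± 13.8, Timd4 13.8 ± 10.8 and Stab1 17.3 ± 11.8. Axl was the exception at 42.2 ± 24.7 CPM, and it was higher in cDC2 than in Lyve1+ macrophages in 6 of 9 mice with overlapping values. The thinned share of cDC2 with Axl was 8.44% (5.88 to 11.6), above that of T cells given before. Pros1 was 32.3 ± 14.3 CPM in cDC2, close to the mean given for inflammatory macrophages, with a thinned share of 6.39% (4.18 to 9.29) against 0.558% (0.115 to 1.62) in T cells. Before thinning 29.4% of cDC2 held Axl and 33.2% Pros1. The thinned share with Mertk was 4.60% (2.75 to 7.18) in cDC2 and 0.743% (0.203 to 1.89) in T cells. That with Itgb5 was 2.81% (1.41 to 4.98) in cDC2 and 0.372% (0.0451 to 1.34) in T cells. By mouse, Itgb5 was not above T cells in Jak2WT mice, with means of 0.816 CPM in cDC2 and 0.899 CPM in T cells. With dilation these means were 8.27 and 2.09 CPM, and with aneurysm 19.8 and 1.47 CPM. Mertk in cDC2 of Jak2WT mice was 44.65 CPM in mouse 1 and 3.40 to 9.80 CPM in the others. The intervals of Timd4, Stab1 and Mfge8 in cDC2 overlapped those of T cells. For Gas6 the thinned share was 3.07% (1.60 to 5.30), an interval that overlaps that of T cells. By mouse, its mean in Jak2WT mice was 5.98 CPM in cDC2 and 10.3 CPM in T cells. In mice with dilation these means were 29.5 and 5.68 CPM, and in those with aneurysm 28.3 and 4.11 CPM. The overlap of intervals thus does not place Gas6 in cDC2 at background, and its source was not tested. In cDC1 (82 cells), which cross-present antigen from dead cells, Timd4 was 131 ± 36.0 CPM (n = 4) and exceeded cDC2 in 4 of 4 mice without overlap, where 25.8% of 7106 genes did not overlap. Transcripts of Gas6 were found in 7.32% of cDC1 at full depth and in 0 of 82 after thinning, against 4.26% and 1.49% of T cells.

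The TIM4 antibody gave 212 counts per cell in Saa3 myeloid cells, 51.1 in Res-MGL1hi, 27.4 in Res-Txnip/Trf, 26.1 in IEG+ cells and 30.5 in cDC1. It gave 3.32 counts per cell in cDC2, 1.47 in inflammatory macrophages and 0.738 in T cells. A cell was called TIM4 positive above 5 counts, the 99th percentile of T cells. By this limit 79.7% of Saa3 myeloid cells (73.6 to 85.0), 86.0% of Res-MGL1hi (81.9 to 89.4), 58.5% of cDC1 (47.1 to 69.3) and 4.46% of inflammatory macrophages (2.78 to 6.73) were positive. Transcript and protein went together inside classes too. Saa3 myeloid cells without the protein (42 cells) had 0 Timd4 UMIs in 887126 UMIs, and those with it (165 cells) had 411 CPM. The 48 TIM4-positive cDC1 had 195 CPM of Timd4 and the 34 negative cDC1 27.2 CPM. Among cDC2 the 31 positive cells also had Gas6 at 121 CPM against 15.9 CPM in the 367 negative cells, and Stab1 at 62.1 CPM, and whether these barcodes held macrophage RNA was not tested.

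The antibody allowed a split of the Lyve1+ macrophages that used no transcript. In all 10 mice there were at least 12 cells on each side, 881 positive and 262 negative cells in all. Positive and negative sums of the same mouse were compared by edgeR's quasi-likelihood test with the mouse as a block, adjusted by the Benjamini-Hochberg method over 4934 genes, and 5.88% of genes were called (109 or 2.21% higher and 181 or 3.67% lower in positive cells). Of the 8 members, 4 were higher in TIM4-positive cells, 1 was lower and 3 were not called. Timd4 is among the 4, and since its own protein made the split, its call was largely set by the design.

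Timd4 itself was the largest of these differences. TIM4-positive cells ranged from 121 to 217 CPM (median 172) and negative cells from 0 to 96.6 CPM (median 11.6), positive above negative in 10 of 10 mice. The difference was 3.61 on the log2 scale (SE 0.38, adjusted p = 0.000242). This fitted value rests partly on 2 mice whose negative cells had 0 UMIs of Timd4. The highest negative value, 96.6 CPM, came from the 12 negative cells of mouse 4 and rested on 11 UMIs. After thinning, 25.9% of positive and 3.05% of negative cells held a Timd4 transcript, so most TIM4-positive cells showed none at this depth.

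Both TAM bridges followed TIM4. Gas6 was 498 to 700 CPM (median 586) in positive cells and 290 to 526 (median 421) in negative cells, higher in 10 of 10 mice, by 0.48 on the log2 scale (SE 0.08, adjusted p = 5.383e-05). Pros1 was 79.0 to 160 CPM (median 105) against 18.6 to 82.1 (median 69.5), higher in 10 of 10 mice, by 0.75 (SE 0.14, adjusted p = 0.000565). Stab1 was 428 to 893 CPM (median 556) against 307 to 513 (median 414), higher in 9 of 10 mice, by 0.39 (SE 0.08, adjusted p = 0.00115). Mouse 7 was the exception, with 459 CPM in positive and 506 CPM in negative cells.

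Axl went the other way. It was 10.9 to 30.7 CPM (median 19.2) in positive cells and 17.6 to 60.2 (median 42.8) in negative cells, lower in positive cells of 9 of 10 mice, by -1.24 on the log2 scale (SE 0.20, adjusted p = 7.47e-05). Mouse 4, with 5 and 2 Axl UMIs, was the exception. Mertk (0.11, adjusted p = 0.756, interval -0.13 to 0.34), Mfge8 (-0.08, adjusted p = 0.934, interval -0.49 to 0.33) and Itgb5 (-0.25, adjusted p = 0.491, interval -0.55 to 0.06) did not pass the test. Lyve1 was 1892 ± 385 CPM (SD, n = 10) in positive and 914 ± 375 in negative cells.

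**Figure D2:**
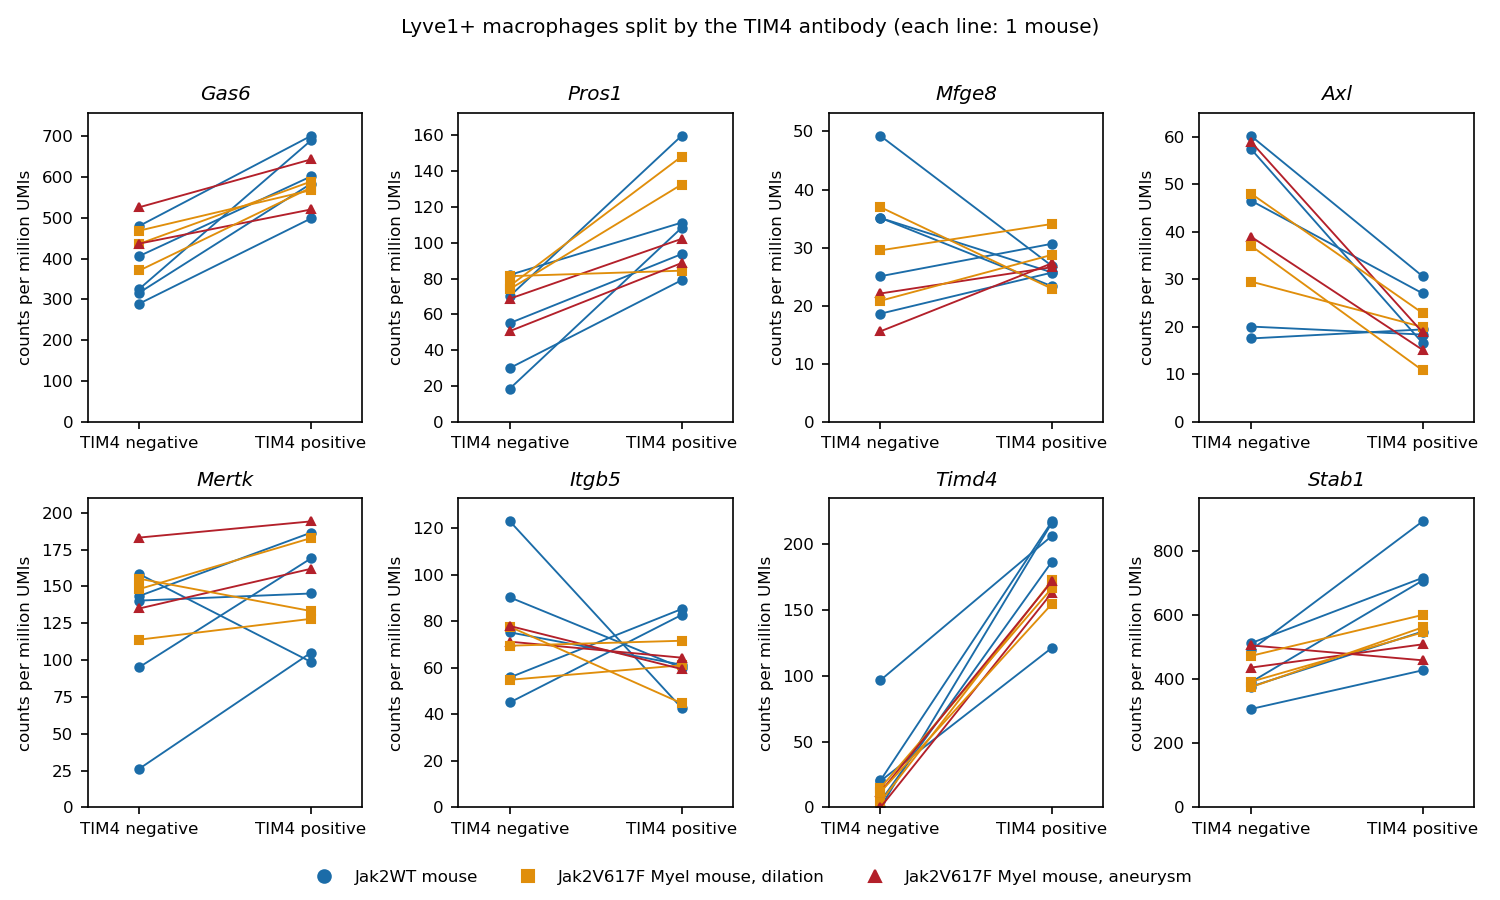
Level of each member in CPM (linear axes from 0) in TIM4-negative and TIM4-positive Lyve1+ macrophages. Each line joins both values of 1 mouse and is coloured by group. Gas6, Pros1 and Timd4 rise in all 10 mice and Axl falls in 9, while the lines of Mertk, Mfge8 and Itgb5 cross.

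These calls depended on which cells were kept. When cells with markers of 2 lineages were removed, which left 435 of the 1143 cells, the calls of Gas6 (0.34, adjusted p = 0.633), Pros1 (0.37, adjusted p = 0.865) and Stab1 (0.09, adjusted p = 0.956) were lost. With a split at the median TIM4 share of antibody counts Stab1 was not called (0.23, adjusted p = 0.116) and Itgb5 was (-0.42, adjusted p = 0.0401).

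Subset makeup moved with the split. Res-MGL1hi made up 34.1% of positive and 18.7% of negative cells, and IEG+ cells 44.9% and 59.2%. Within IEG+ cells alone, a comparison added after the data were seen, Gas6 was again higher in positive cells (0.64, adjusted p = 0.000964) and so was Timd4 (3.30), with 141 of 2929 genes called. There Stab1 lost its call (0.29, adjusted p = 0.323), and Pros1 and Axl were too low to test. Too few mice had 10 cells on both sides in Res-MGL1hi or Res-Txnip/Trf alone, and the pooled values there were 665 against 616 CPM and 648 against 444 CPM for Gas6, and 9.72 against 14.1 CPM and 25.6 against 56.9 CPM for Axl. The positive cells also had more antibody counts in total in 10 of 10 mice (1241 to 2165 against 1003 to 1829 per cell). Isotype control antibodies, meant to bind nothing specific, were higher in 9 of 10 mice (0.385 to 1.80 against 0.261 to 1.23 per cell). B cell markers were higher in 4 of 10 mice, and T cell, neutrophil and non-leukocyte markers in 7 of 10 each. The part of these in the differences was not tested.

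Of the other uptake genes tested in this split, few were called. Among 7 other receptors 0 were higher and 1 was lower, the lipopolysaccharide co-receptor Cd14 (-0.73, SE 0.11, adjusted p = 0.000813). Among 7 other bridges 1 was higher, the complement component C4b (1.12, SE 0.12, adjusted p = 2.579e-07). Among 5 genes that handle the engulfed cell 1 was higher, Mylip (0.73, SE 0.15, adjusted p = 0.00115), which encodes a ligase that degrades lipoprotein receptors. None of 8 engulfment genes or 4 genes of shedding and don't-eat-me signals was called. The median of these lists lay between -0.09 and -0.01, and that of all genes was -0.00. A test of whether genotype changed the difference between TIM4-positive and TIM4-negative cells called 1 of 4934 genes, with 265 at an unadjusted p below 0.05, and no member. By edgeR's quasi-likelihood test the lowest adjusted p among members were those of Gas6 (-0.33, adjusted p = 0.87) and Stab1 (-0.31, adjusted p = 0.898).

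Genotype was compared next, since the mutation was directed to myeloid cells. In Lyve1+ macrophages the values of Jak2WT and Jak2V617F Myel mice overlapped for each of the 8 members. The share of all genes that overlapped in this way was not counted. Gas6 was 601, 523, 549, 434 and 648 CPM in the 5 Jak2WT mice, 546, 555 and 535 CPM in the mice with dilation and 606 and 509 CPM in those with aneurysm. Timd4 was 164, 146, 94.1, 173 and 171 CPM in Jak2WT mice, 136, 133 and 128 CPM with dilation and 112 and 150 CPM with aneurysm. The lowest and highest Gas6 values were both Jak2WT, as were those of Timd4. These sums pool subsets whose shares moved with genotype. Res-MGL1hi gave 91 cells in Jak2WT, 156 with dilation and 102 with aneurysm, and Res-Txnip/Trf 141, 68 and 34. Timd4 in Res-MGL1hi was 238 ± 9.53 CPM (SD, n = 3) in Jak2WT and 181 ± 34.0 in mutant mice. In Res-Txnip/Trf it was 191 ± 42.9 and 138 ± 48.2, and in IEG+ cells 76.4 ± 20.6 and 88.2 ± 28.3. The part of the shares was not tested.

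By edgeR's quasi-likelihood test over 7657 genes, 0 of the 8 members were called between genotypes, where 0.966% of genes were (33 or 0.431% higher and 41 or 0.535% lower in mutant mice, 944 at an unadjusted p below 0.05, 85 of 16056 called by DESeq2). The log2 difference, mutant over Jak2WT, was -0.01 for Gas6 (interval -0.20 to 0.18), 0.14 for Pros1 (-0.20 to 0.49) and -0.06 for Mfge8 (-0.39 to 0.28). It was -0.30 for Axl (-0.74 to 0.14), 0.22 for Mertk (-0.09 to 0.53) and -0.17 for Itgb5 (-0.42 to 0.09). For the direct receptors it was -0.17 for Timd4 (-0.44 to 0.09) and -0.22 for Stab1 (-0.48 to 0.04). The lowest adjusted p among members was 0.57, for Stab1. B cell markers summed to 253 to 388 CPM in the Lyve1+ macrophages of Jak2WT mice, 193 to 285 CPM with dilation and 190 to 201 CPM with aneurysm, and T cell markers to 17.9 to 25.3 CPM over all mice, and their part in these differences was not tested. Of 43 other uptake genes tested 1 was called, Mylip, which was higher in mutant mice (1.00, SE 0.18, adjusted p = 0.0128).

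**Figure D3:**
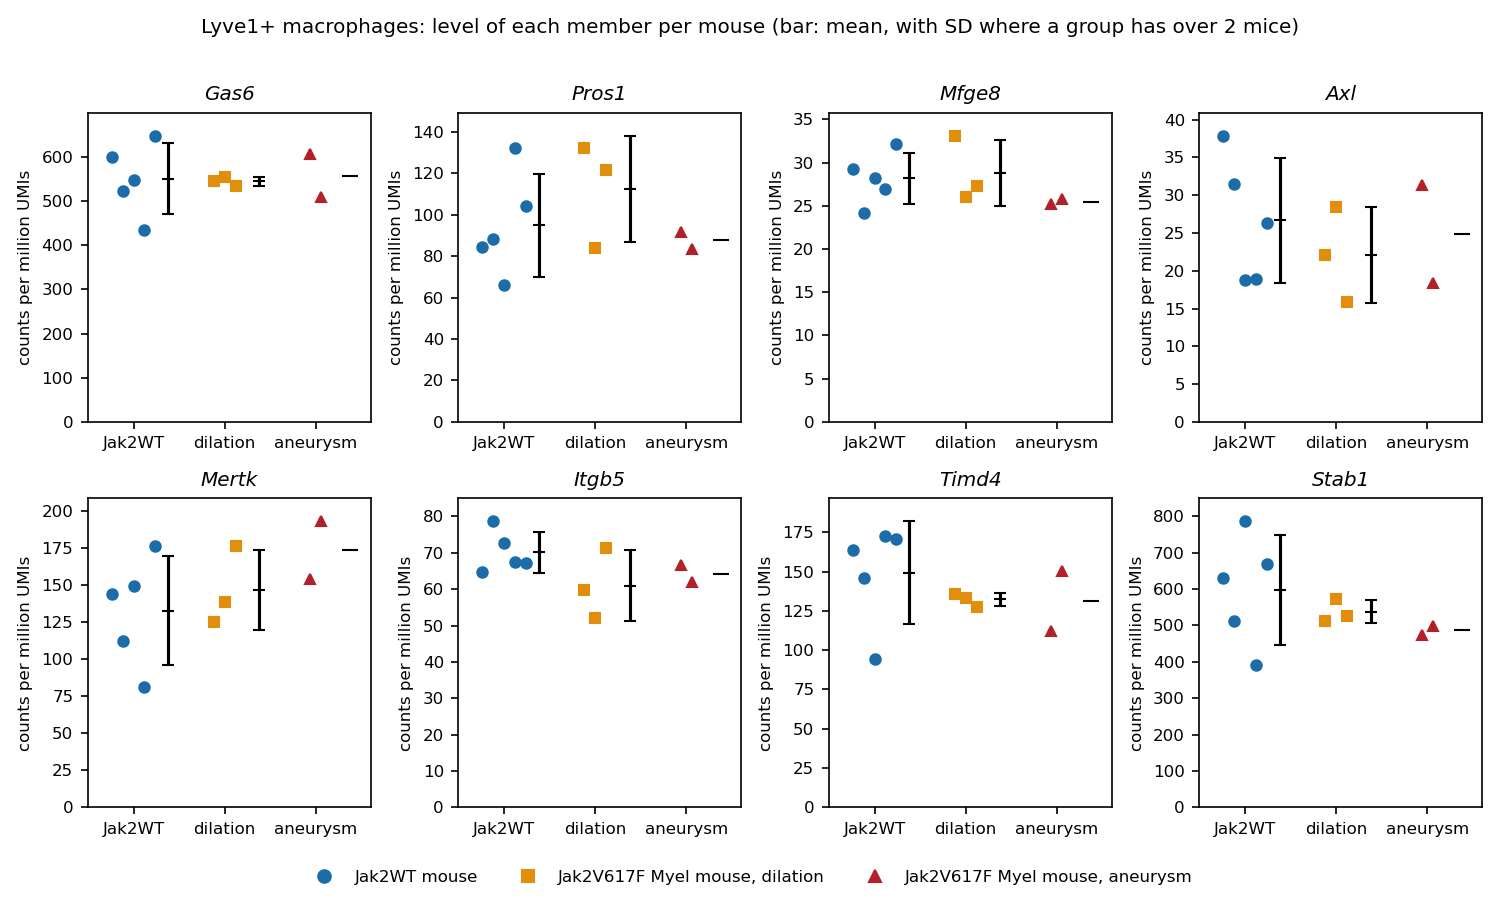
Level of each member in CPM (linear axes from 0) in the Lyve1+ macrophages of each mouse, by group. The bar gives the mean, with the SD for Jak2WT and dilation, and aneurysm has 2 mice. For all 8 members the values of the genotypes overlap, and the share of all genes that overlap was not counted.

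Within the mutant mice, aneurysm was set against dilation in the same cells. None of the 8 members was called by edgeR over 8402 genes, where 0.143% of genes were (10 higher, 0.119%, and 2 lower, 0.0238%, with 498 at an unadjusted p below 0.05, 7 of 15272 called by DESeq2). Pros1 came nearest, at 91.7 and 83.5 CPM with aneurysm and 132, 83.7 and 121 CPM with dilation (-0.39, SE 0.17, unadjusted p = 0.0304, adjusted p = 0.818). The mouse with dilation at 83.7 CPM lay between the 2 with aneurysm. For the other 7 members the log2 difference ran from -0.18 (Mfge8) to 0.21 (Mertk), and their intervals all held 0. Of 44 other uptake genes tested, Cd14 was called (0.55, SE 0.10, adjusted p = 0.0226) and was higher with aneurysm.

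The TIM4 protein on Lyve1+ macrophages gave a difference between genotypes whose sign depended on scaling. Counts per cell were 31.2, 29.5, 24.9, 26.0 and 28.9 in Jak2WT mice, 45.3, 33.6 and 38.8 with dilation and 35.1 and 35.1 with aneurysm. All 5 mutant mice thus exceeded all 5 Jak2WT mice (37.6 ± 4.72 against 28.1 ± 2.61, SD, exact permutation test, two-sided, p = 0.00794, the smallest that 5 against 5 allows). Across the panel 28.8% of the 73 antibodies with counts did not overlap between genotypes, 20 of these 21 higher in mutant mice. The isotype control antibodies, which bind nothing specific, were among the counts that moved, from 0.395 to 0.794 per cell in Jak2WT to 0.842 to 1.62 in mutant mice. With counts scaled to the whole panel by TMM the log2 difference was -0.10 (SE 0.14, adjusted p = 0.803, 1 of 73 antibodies or 1.37% called), scaled to the isotype controls it was -0.71 (SE 0.25, adjusted p = 0.0529, 11 of 73 or 15.1% called), and per cell without scaling it was 0.42 (SE 0.14, adjusted p = 0.0211, 38 of 73 or 52.1% called).

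The share of TIM4-positive Lyve1+ macrophages was 77.4% ± 7.19 in mutant and 74.0% ± 3.36 in Jak2WT mice (SD, n = 5 each, exact permutation test, two-sided, p = 0.341). Each mouse was stained alone, and the 2 genotypes received anti-CD45.2 with different fluorochromes, so staining and genotype cannot be told apart. Aneurysm and dilation could not be separated by these measures (p = 0.6 per cell and 0.8 for the share by exact permutation test, where 0.1 is the smallest that 2 against 3 allows). The panel fit gave -0.33 (adjusted p = 0.657), with 0 of 73 antibodies called.

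**Figure D4:**
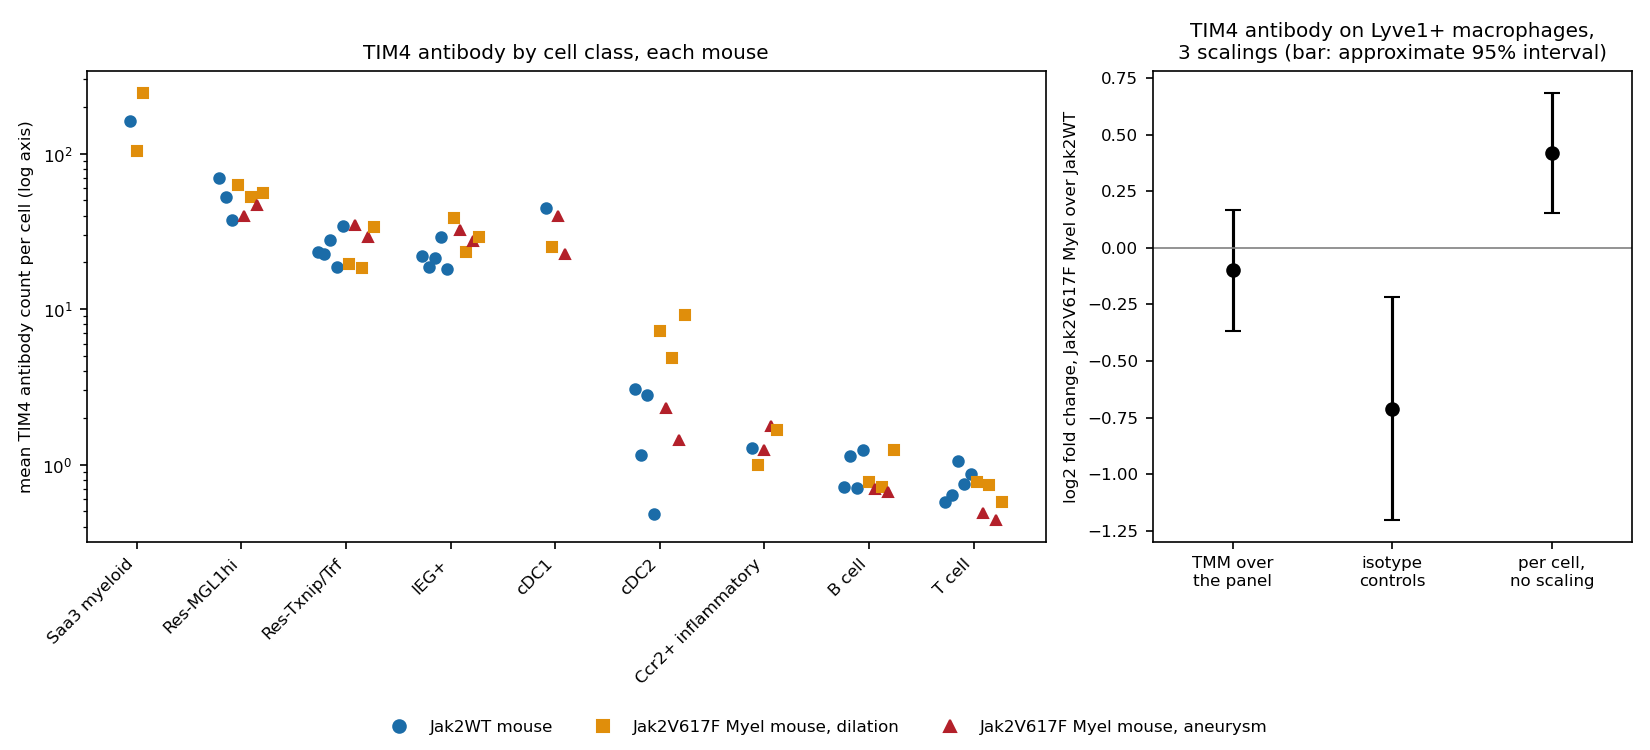
Left, mean TIM4 antibody count per cell (log axis) by class, each point a mouse with at least 10 such cells. Right, log2 fold change of the antibody on Lyve1+ macrophages, mutant over Jak2WT, with the bar showing the approximate 95% interval, which lies at -0.10 scaled to the panel, -0.71 scaled to isotype controls and 0.42 per cell.

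In cDC2 the counts were sparse, and 9 of the 10 mice had at least 10 cells. Between genotypes 2 of the 8 members passed the filter on low counts, and neither was called by edgeR over 4375 genes, of which 0.0229% were (1 gene, 335 at an unadjusted p below 0.05, 21 of 14758 called by DESeq2). Pros1 was 16.2, 34.0, 34.2 and 19.6 CPM in Jak2WT mice, 14.9, 55.0 and 52.2 CPM with dilation and 33.3 and 31.4 CPM with aneurysm (0.51, SE 0.38, adjusted p = 0.796). Axl was 36.5, 57.7, 5.71 and 39.2 CPM in Jak2WT mice, 4.96, 45.3 and 53.4 CPM with dilation and 55.4 and 81.6 CPM with aneurysm (0.43, SE 0.58, adjusted p = 0.908). The genotypes overlapped for both.

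Between aneurysm and dilation all 8 members were tested in cDC2 and 0 were called, where 0.293% of 6820 genes were (19 or 0.279% higher and 1 or 0.0147% lower, 620 at an unadjusted p below 0.05, 27 of 14475 called by DESeq2). The differences with the lowest p were those of Stab1 (0.93, SE 0.32, unadjusted p = 0.0139, adjusted p = 0.393), Itgb5 (1.09, SE 0.59, adjusted p = 0.641) and Mfge8 (1.01, SE 0.58, adjusted p = 0.668). Axl followed at 0.88 (SE 0.53, adjusted p = 0.732). Havcr2, which encodes TIM-3, another phosphatidylserine receptor, was called among the other uptake genes and was higher with aneurysm (2.62, SE 0.39, adjusted p = 0.0265).

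Over all macrophages together, 6 of the 8 members differed between mice with and without aneurysm. The 2 mice with aneurysm were compared with the other 8, of both genotypes, over 9013 genes, of which edgeR's quasi-likelihood test called 14.3% (760 or 8.43% higher and 533 or 5.91% lower). Such sums add a change in the shares of subsets to any change within a subset. Gas6, Pros1, Timd4 and Stab1 were lower with aneurysm, and Axl and Itgb5 were higher. The same members separated Lyve1+ from inflammatory macrophages. Of the 471 inflammatory cells 416 came from the 2 mice with aneurysm, so this match adds no separate information.

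Gas6 was 282 and 233 CPM with aneurysm, 479, 513 and 484 CPM with dilation and 521, 477, 513, 401 and 582 CPM in Jak2WT mice (-0.86 on the log2 scale, SE 0.13, adjusted p = 0.000113). Timd4 was 35.8 and 57.2 CPM with aneurysm, 121, 119 and 118 CPM with dilation and 152, 127, 88.8, 134 and 153 CPM in Jak2WT mice (-1.36, SE 0.19, adjusted p = 8.084e-05). For both genes the mice with aneurysm lay below all 8 others. The share of all genes that separated these mice without overlap was not counted. Pros1 (41.7 and 52.3 against 64.3 to 119 CPM) and Stab1 (301 and 345 against 370 to 744 CPM) also fell, by 0.89 (SE 0.21, adjusted p = 0.0114) and 0.62 (SE 0.18, adjusted p = 0.0253) on the log2 scale.

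Axl was 112 and 86.7 CPM with aneurysm, 37.4, 35.8 and 25.3 CPM with dilation and 56.7, 52.6, 17.5, 34.9 and 47.9 CPM in Jak2WT mice (1.46, SE 0.26, adjusted p = 0.00253). Itgb5 was 159 and 167 CPM with aneurysm, 68.8, 53.7 and 74.0 CPM with dilation and 67.6, 85.2, 70.1, 86.3 and 78.4 CPM in Jak2WT mice (1.25, SE 0.13, adjusted p = 3.015e-06). Mertk was 131 and 134 CPM with aneurysm, inside the range of the others (0.05, adjusted p = 0.875, interval -0.26 to 0.36). Mfge8 was 17.1 and 19.8 CPM with aneurysm, below all others, and did not pass the test (-0.49, SE 0.17, adjusted p = 0.06). Without mouse 7 the calls of Pros1 (adjusted p = 0.188), Stab1 (0.291) and Axl (0.0505) were lost, and without mouse 9 those of Pros1 (0.0579) and Stab1 (0.134). Those of Gas6, Timd4 and Itgb5 were kept without either mouse. All 6 calls were kept without the inflammatory cluster that held antigen-presentation genes, a setting added after the data were seen.

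**Figure D5:**
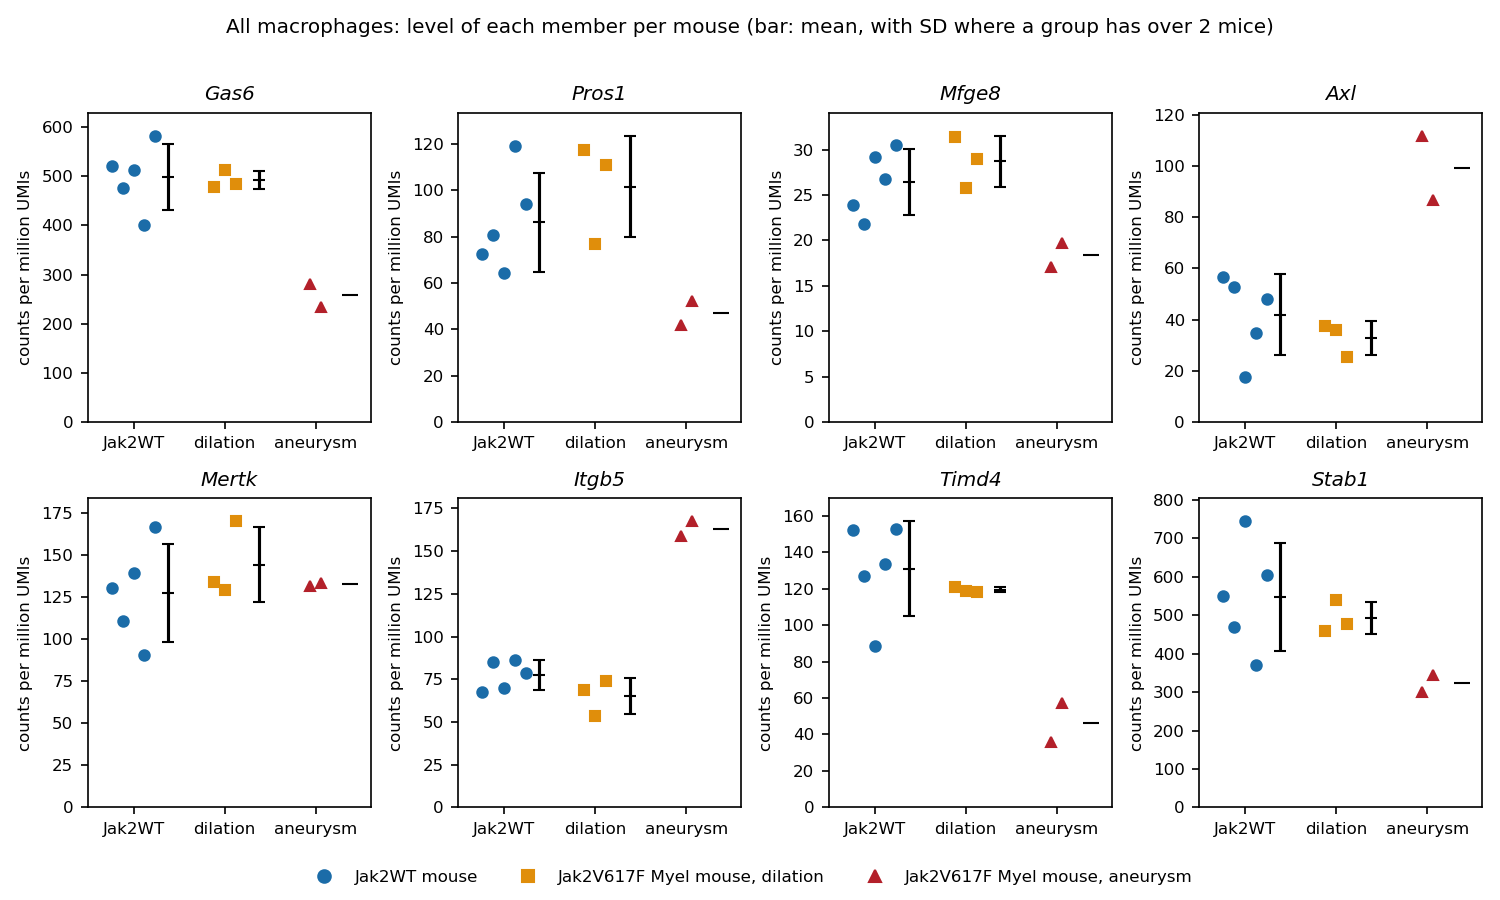
Level of each member in CPM (linear axes from 0) over all macrophages of each mouse, by group. The bar gives the mean, with the SD for Jak2WT and dilation, and aneurysm has 2 mice. The aneurysm points lie below all others for Gas6, Pros1, Mfge8, Timd4 and Stab1, above them for Axl and Itgb5, and among them for Mertk. The share of all genes that separate in this way was not counted.

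The subset shares moved with this comparison. Inflammatory macrophages gave 61.3% of macrophage UMIs in the mice with aneurysm and 6.90% in the others. When the subset levels of the other 8 mice were weighted by the subset shares of the mice with aneurysm, Gas6 came to 259 CPM, where 255 was measured. The same sum gave 51.4 CPM for Timd4 (47.5 measured), 53.1 for Pros1 (47.5 measured), 299 for Stab1 (325 measured) and 115 for Axl (98.1 measured). For Itgb5 it gave 117 CPM where 164 was measured, and for Mfge8 24.6 where 18.5 was measured. The inflammatory levels in these sums rested on 23 cells of Jak2WT mice and 32 of mice with dilation. The sums are descriptions, and the part of the subset shares in the differences was not tested. In Lyve1+ macrophages alone, a comparison added after the data were seen, 1 of 8469 genes was called and no member (Gas6 0.01, Timd4 -0.11, Axl -0.03 and Itgb5 -0.06 on the log2 scale). In inflammatory macrophages alone no gene of any kind was called, and so no member, with Itgb5 at 0.56 (SE 0.24, adjusted p = 0.48) and Axl at -0.09. The mice without aneurysm in this fit were mice 2, 6 and 10, with 11, 11 and 18 such cells. A fit of so few mice and cells cannot show that members were unchanged within this class.

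Other uptake genes were called over all macrophages too, more of them higher than lower with aneurysm. Of all 9013 genes, 8.43% were called higher and 5.91% lower. Of the 12 other receptors tested, 8 were higher and 0 lower (median 0.89, all genes -0.03), among them Cd300lf (2.65, SE 0.39, adjusted p = 0.000179) and Havcr2 (2.41, SE 0.18, adjusted p = 5.256e-08), both receptors for phosphatidylserine or related lipids. Of 10 other bridges 3 were higher and 1 lower (median 0.16), with Lgals3, the galectin-3 gene, at 2.01 (SE 0.24, adjusted p = 0.000393). Of 13 engulfment genes 2 were higher and 1 lower (median 0.16), and Tgm2, a transglutaminase that assists uptake with integrins, had the largest difference of all listed genes at 3.65 (SE 0.30, adjusted p = 2.315e-06). Of 11 genes that handle the engulfed cell 2 were higher, the cholesterol exporter Abcg1 (1.71, SE 0.19, adjusted p = 7.054e-06) and the lipid-sensing receptor Pparg (1.46, SE 0.35, adjusted p = 0.00986). Of 5 shedding and don't-eat-me genes 2 were higher (median 0.35). In Lyve1+ macrophages Havcr2, Cd300lf, Tgm2 and Pparg did not pass the filter on low counts, either between genotypes or between aneurysm and dilation. They could be tested only in sums that include the inflammatory macrophages. The subset shares given above differed between the same mice, and the part of these shares in the lists was not tested.

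Across the 20 classes with at least 30 cells, the genes whose log2(CPM + 1) was most like that of each member were found among 12174 genes with at least 10 CPM in some class. Mertk was closest to Abca9 (Pearson r 0.966), Adgre1, the F4/80 gene (0.964), and Csf1r, the macrophage growth factor receptor (0.964). Stab1 was closest to Dab2 (0.957), Trem2 (0.954) and C1qa (0.951), and Gas6 to Mcfd2 (0.938), Rnase4 (0.933) and Ccn1 (0.925). Pros1 was nearest to Serpinb6a (0.915), Arhgap23 (0.906) and Layn (0.901), Axl to Eng (0.882), Hsd17b4 (0.878) and Maged1 (0.864), and Itgb5 to Rnase4 (0.852), Col14a1 (0.849) and Ms4a7 (0.842). Timd4 was nearest to Sult1a1 (0.85), Man2b1 (0.845) and Trf (0.841), and Mfge8 to P4ha2 (0.851), Gask1b (0.84) and Syt7 (0.836). The classes differ in depth and come from 1 pool, so these are descriptions.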

How the data were processed

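The authors deposited 1 matrix of UMI counts per cell barcode (genes, antibodies and hashtags) made with Cell Ranger 6.0.2 on mouse mm10 (GRCm38); the counts are whole and unnormalized. The members and gene lists were chosen with earlier results of these data known. Seurat 5.3.0, edgeR 4.0.16 and DESeq2 1.42.0 were run under R 4.3.3. Barcodes were assigned to mice by HTODemux (quantile 0.99), and barcodes with several or no hashtags and cells with over 10% mitochondrial transcripts were removed; no other doublet caller was run. Cells were clustered on 2000 variable genes and 20 components (resolution 0.3; macrophages 0.8), and clusters were named from marker lists with at least 3 detected markers. Macrophage clusters of low RNA content (391 cells) were removed. UMI counts were summed per mouse with at least 10 cells and tested by edgeR's quasi-likelihood test (TMM, filterByExpr, Benjamini-Hochberg, threshold 0.05, two-sided), which was tested on simulated data. Intervals of log2 differences are 1.96 SE. Named genes were the members, Lyve1, Jak2, up to 6 called list genes per comparison by size of change, and 3 like genes per member. Alternatives covered DESeq2, scaling, filters, demultiplexing, clustering and leaving out each mouse. RefSeq promoters were of GRCm38.p6. The fit of TIM4-positive against TIM4-negative cells had the mouse as a block, since both sums came from the same animals. Depth per mouse is given with the samples, and the replicates are separate mice.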

Additional observations from a re-analysis of the deposited data

Results flagged for a closer look

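The values of each member, and of the TIM4 antibody, were examined in 52 groups of 4 or 5 mice. Of these, 4 held a mouse whose gap to the nearest other mouse was large for the range of the group, where chance gives 2.6. In Lyve1+ macrophages of mutant mice, Mfge8 was 33.08 CPM in mouse 6 and 25.2 to 27.3 CPM in the other 4. Over all macrophages of mutant mice, Mertk was 169.9 CPM in mouse 10 and 129 to 134 CPM in the other 4. In cDC2 of Jak2WT mice, Mertk was 44.65 CPM in mouse 1, from 11 UMIs in 15 cells, and 3.40 to 9.80 CPM in the other 3. In the same cells Itgb5 was 3.265 CPM in mouse 5 and 0 in the other 3. With all others at 0 the gap is the whole range whatever the count, so this flag carries no weight.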

How the results depend on the processing

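Of the member values recomputed under alternatives, 763 kept their direction and side of the threshold, 15 lost a call, 4 gained one and 61 reversed; the cause of the changes was not tested. All reversals but those in aneurysm named here were of values that had not been called. Sparse counts in cDC2 and the 38 to 215 Lyve1+ macrophages per mouse limit the precision.

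The genotype comparison in Lyve1+ macrophages called 74 genes, 287 without a low-count filter, 12 with cells of 2 lineages removed, 3 in Res-MGL1hi alone, 0 in Res-Txnip/Trf alone and 20 in IEG+ alone. Gas6 reversed without the filter (0.04296), at macrophage resolution 0.5 (0.0009421) and in a fit of all 3 groups (0.001264). In Res-MGL1hi alone Pros1 (-0.03251), Mertk (-0.01627) and Itgb5 (0.1845) reversed, and in IEG+ alone Timd4 (0.2044) and Mfge8 (0.1272).

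The comparison of aneurysm with dilation in Lyve1+ macrophages called 12 genes, 7 by DESeq2, 57 without a filter, 4 with MULTIseqDemux, 5 in IEG+ alone, and 0 in a fit of all 3 groups, without the IEG+ subset, in Res-MGL1hi alone and in Res-Txnip/Trf alone. With MULTIseqDemux Axl (-0.08104), Timd4 (0.03829) and Itgb5 (-0.01755) reversed, and Itgb5 also at a mitochondrial limit of 5% (-0.0802) and with members left among variable genes (-0.01889). Mfge8 reversed with cells of 2 lineages removed (0.04888), Gas6 (-0.003407) and Timd4 (0.1014) without IEG+, Mertk in Res-MGL1hi alone (-0.03565), Gas6 (-0.4768), Timd4 (0.5843) and Itgb5 (-0.04898) in Res-Txnip/Trf alone, and Axl (-0.08601) and Itgb5 (-0.05324) in IEG+ alone.

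In cDC2 the genotype comparison called 1 gene, 21 by DESeq2, 82 without a filter, 0 with MULTIseqDemux, and 2 at a mitochondrial limit of 5%, with members left among variable genes and with cells of 2 lineages removed; Axl reversed with at least 20 cells per mouse (-0.02062). Aneurysm against dilation called 20 genes, 232 without a filter, 40 with MULTIseqDemux, 12 at the 5% limit and 9 in a fit of all 3 groups; Gas6 reversed by DESeq2 (0.008563) and without a filter (0.05221), and Mertk with MULTIseqDemux (-0.428), at the 5% limit (-0.02615) and with members variable (-0.1199).

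Aneurysm over all macrophages called 1293 genes, 559 with cells of 2 lineages removed, 0 in inflammatory macrophages alone and 1 in Lyve1+ macrophages alone. Mertk reversed with MULTIseqDemux (-0.001773) and with cells of 2 lineages removed (-0.2113) and without the inflammatory cluster rich in MHC class II transcripts (-0.03864). In inflammatory cells alone Axl (-0.08749), Mertk (-0.6663) and Stab1 (0.1881) reversed, and in Lyve1+ macrophages alone Gas6 (0.01316), Axl (-0.0327) and Itgb5 (-0.06132), of which Gas6, Axl, Stab1 and Itgb5 had been called. Mfge8 gained a call with MULTIseqDemux (-0.5468, adjusted p = 0.0231 by edgeR).

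The TIM4 split called 290 genes, 128 with no replicate block for the mouse, where the 5 member calls were kept, 17 with cells of 2 lineages removed, 137 with cells thinned to 3000 UMIs and 141 within IEG+ cells. Mfge8 reversed with members variable (0.04202), Mertk with cells of 2 lineages removed (-0.01328), thinned (-0.03125) and within IEG+ (-0.0183), and Itgb5 within IEG+ (0.04949). The TIM4 antibody difference between genotypes reversed per cell (0.4185).

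Leaving out each mouse in turn gave 22 to 119 calls for genotype and 3 to 21 for severity in Lyve1+ macrophages, 1 to 6 and 7 to 48 in cDC2, 479 to 1473 for aneurysm and 201 to 308 for the TIM4 split, the lowest for aneurysm being without mouse 7. The TIM4 antibody ran from -0.2175 to 0.002297 by genotype and from -0.3939 to -0.1964 by severity. Member values that changed side ran from -0.06975 to 0.05338 (Gas6) and -0.1102 to 0.009074 (Mfge8) by genotype. By severity in Lyve1+ macrophages they ran from -0.2191 to 0.5366 (Axl), -0.1147 to 0.1269 (Gas6), -0.0786 to 0.1873 (Itgb5) and -0.2586 to 0.1704 (Timd4). In cDC2 they ran from -0.7436 to 0.6645 (Gas6), -0.2675 to 0.5509 (Mertk) and -1.611 to 0.04506 (Timd4), and in the TIM4 split from -0.16 to 0.04531 (Mfge8). For aneurysm they ran from 1.257 to 1.644 (Axl), -0.5863 to -0.3992 (Mfge8), -1.046 to -0.7405 (Pros1) and -0.7101 to -0.5364 (Stab1). The split within Res-MGL1hi or Res-Txnip/Trf alone could not be fitted.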
